A study of Mus musculus with 40 samples.

Results

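Cholesterol is made from acetyl-CoA by a chain of enzymes, and the genes examined here are 28 members of that chain and of the switch that controls it. They were chosen by name as genes of this pathway, with earlier results of these data known. They are 20 synthesis enzymes, the sterol transfer protein gene Stard4 and 7 genes of the SREBP system, out of 23079 gene identifiers in the count table, and all 28 were found in it and passed the filter on low counts in every comparison. RNA was sequenced from whole cervix and whole myometrium, the smooth muscle wall of the uterus, of pregnant C57BL/6 mice at 18.5 days post coitum. The 4 groups hold 10 libraries each and are cervix of mice given human chorionic gonadotropin (hCG), cervix of mice given phosphate-buffered saline (PBS), myometrium of hCG mice and myometrium of PBS mice, with both agents injected intraperitoneally. hCG is a hormone of the placenta, and its receptor is that of luteinizing hormone, Lhcgr. No group carried a genetic change. Neither the dose nor the time from injection to collection is given in the labels. The labels number the libraries, in part with the letter R, without saying that a number is an animal, so p-values measure only the spread between these libraries.

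SREBP2, the product of Srebf2, is a transcription factor held in the membrane of the endoplasmic reticulum by Scap, a sterol-sensing escort, and by the Insig proteins, which retain Scap when sterol is plentiful. When sterol runs low, Scap carries SREBP2 to the Golgi, where the proteases encoded by Mbtps1 and Mbtps2 release its active part, which then turns on the synthesis enzymes, Insig1 and Srebf2 itself. Srebf1 encodes the related factor SREBP1, better known for fatty acid synthesis. In stratified squamous epithelium, such as the lining of the lower cervix, cholesterol is needed for the membranes and the barrier lipids of the surface layers, and the uterine wall uses it for the membranes of its muscle cells.

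Promoter sequences are shown for 5 members because the switch acts on DNA near the start of these genes. They are the 250 bases before the RefSeq start on GRCm38.p6, for Hmgcs1 (chr13:119690101-119690350, plus strand), Hsd17b7 (chr1:169969206-169969455, minus strand), Srebf2 (chr15:82147019-82147268, plus strand), Insig1 (chr5:28071162-28071411, plus strand) and Lbr (chr1:181842402-181842651, minus strand). The first 3 were lower with hCG in cervix, Insig1 is the feedback member and Lbr did not pass any test of hCG. Capitals mark 3 motifs, searched on both strands without overlap between them: TCACNCCAC, a form of the sterol regulatory element that SREBP binds, CCAAT, bound by NF-Y (ATTGG on the other strand), and the E-box CACGTG.
Hmgcs1: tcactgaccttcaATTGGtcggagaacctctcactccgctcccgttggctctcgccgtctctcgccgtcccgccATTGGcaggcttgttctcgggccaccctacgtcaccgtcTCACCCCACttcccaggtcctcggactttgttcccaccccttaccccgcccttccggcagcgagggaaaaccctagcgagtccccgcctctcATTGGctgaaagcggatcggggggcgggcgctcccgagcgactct
Hsd17b7: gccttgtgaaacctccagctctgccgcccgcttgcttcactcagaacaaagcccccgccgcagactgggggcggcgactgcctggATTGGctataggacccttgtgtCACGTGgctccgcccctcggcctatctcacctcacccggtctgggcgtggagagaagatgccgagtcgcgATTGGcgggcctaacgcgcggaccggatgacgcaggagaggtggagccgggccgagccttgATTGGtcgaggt
Srebf2: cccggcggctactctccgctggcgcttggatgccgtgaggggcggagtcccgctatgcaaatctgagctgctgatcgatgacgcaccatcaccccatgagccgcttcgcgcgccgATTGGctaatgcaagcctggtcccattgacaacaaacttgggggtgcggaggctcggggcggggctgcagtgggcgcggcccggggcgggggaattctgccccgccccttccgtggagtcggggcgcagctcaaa
Insig1: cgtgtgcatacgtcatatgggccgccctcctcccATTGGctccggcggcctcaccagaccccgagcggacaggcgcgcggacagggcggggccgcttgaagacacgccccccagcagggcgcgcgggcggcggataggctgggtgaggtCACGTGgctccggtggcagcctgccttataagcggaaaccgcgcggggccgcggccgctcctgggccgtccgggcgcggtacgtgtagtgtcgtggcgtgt
Lbr: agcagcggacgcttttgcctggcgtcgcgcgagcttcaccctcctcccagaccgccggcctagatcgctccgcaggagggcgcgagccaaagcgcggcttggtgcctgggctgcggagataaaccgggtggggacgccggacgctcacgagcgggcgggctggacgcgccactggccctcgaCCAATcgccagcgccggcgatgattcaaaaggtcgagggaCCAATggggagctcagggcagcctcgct
In the longer window from 250 bases before to 50 bases after the start, RefSeq gives a sequence for 24 of the 28 members. CCAAT stood in 20 of these 24, against 41.1% of the promoters of 27025 genes. CACGTG stood in 5 of them (Hsd17b7, Sc5d, Dhcr7, Scap and Insig1), against 8.09% of all genes. TCACNCCAC stood only in that of Hmgcs1, as TCACCCCAC with its first base at position -137, against 1.44% of all genes. A match is a description of letters, and a window without one says nothing of whether the factor binds the gene. The promoter of Lbr holds CCAAT at 2 places and that of Hsd17b7 at 3.

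The libraries held 5449239 to 25028360 counts. Markers of squamous epithelium summed to 1468 to 79170 CPM (counts divided by library size and scaled) in cervix libraries and to 104 to 254 CPM in myometrium libraries, and smooth muscle markers to 12260 to 29400 CPM in myometrium libraries. The cervix libraries were uneven, also within a treatment. In hCG cervix the squamous sum was lowest in libraries 5 and 3, which also held the highest sums of urothelial markers, 2460 and 724.5 CPM, against at most 268 CPM in PBS cervix. Library 1 of hCG cervix held 6074 CPM of skeletal muscle markers, against at most 263 CPM in PBS cervix, and libraries 3 and 1 held 1907 and 1263 CPM of adipocyte markers, against at most 298 CPM in PBS cervix. None of these marker genes was at 0 in all libraries of either cervix group. These are whole-tissue measurements, in which fewer cells of a type and less RNA per cell cannot be told apart.

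Cholesterol synthesis genes were lower in the cervix of hCG mice than of PBS mice along most of the chain. Of the 28 members, 13 passed the test as lower and 0 as higher, at a Benjamini-Hochberg adjusted p under 0.05 from edgeR's quasi-likelihood test over 14932 genes. Across all genes 8.91% passed, 4.17% as lower and 4.74% as higher. The fold changes of 25 members were negative and their median was -0.87 on the log2 scale, while the median over all genes tested was 0.00701. The summed level of the 20 enzymes ran from 645 over a median of 1106 to 1838 CPM in hCG cervix, and from 991 over 2618 to 4077 CPM in PBS cervix. The groups overlapped in that sum, and they overlapped for each of the 28 members, as they did for all but 0.0469% of the genes tested. For 17 members at least 9 of the 10 hCG libraries lay below the median of the PBS libraries, a position found for 13.8% of all genes.

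**Figure D1:**
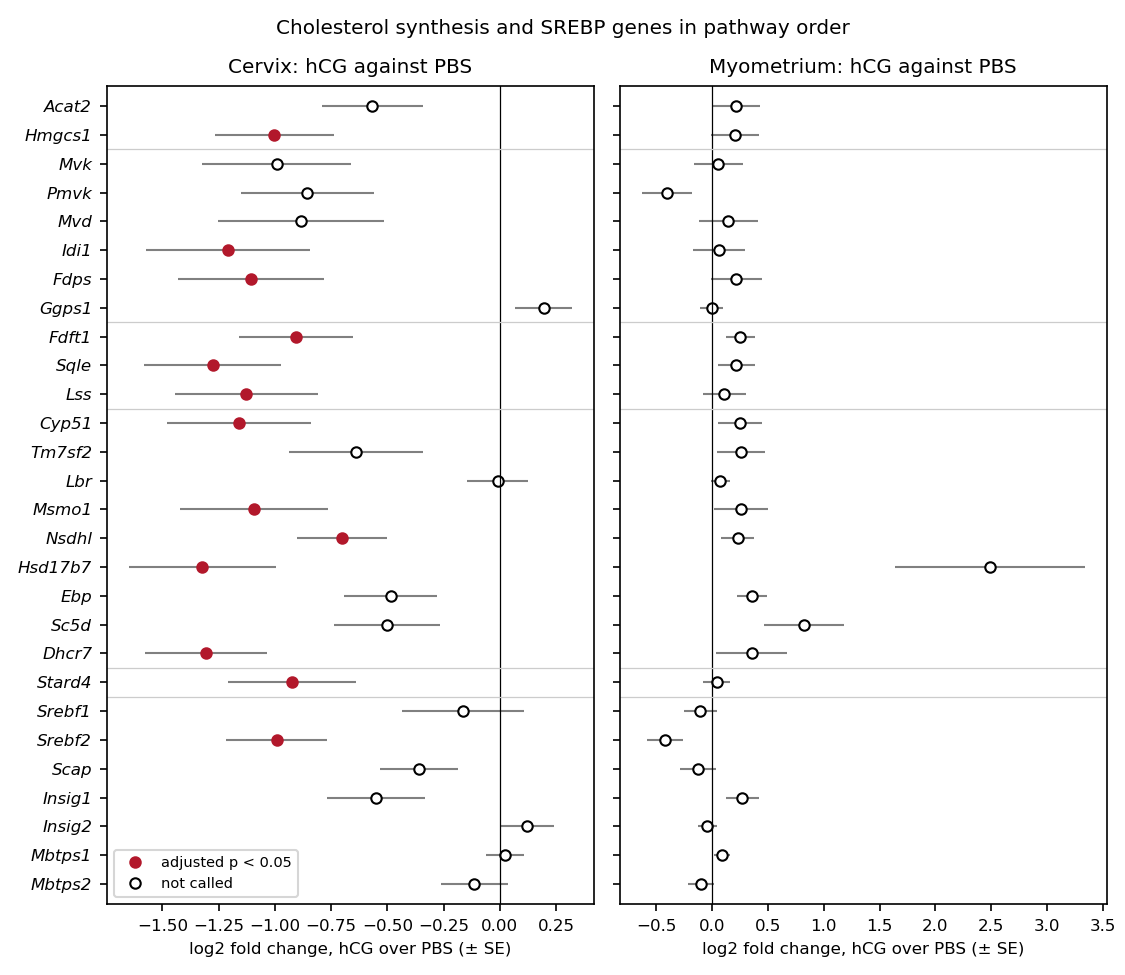
Log2 fold change of hCG over PBS (horizontal axis, bars are standard errors) for the 28 members in pathway order from top to bottom, in cervix (left) and myometrium (right), with n = 10 libraries per group. Filled points passed the test; in cervix 13 members did, all to the left of 0, and in myometrium 0 did.

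The chain starts with Acat2, a thiolase that joins acetyl-CoA units, and Hmgcs1, which makes HMG-CoA. Hmgcs1 ran from 121 over a median of 232 to 410 CPM in hCG cervix, and from 210 over 583 to 871 CPM in PBS cervix. All 10 hCG libraries lay below the PBS median, though 4 PBS libraries fell within the hCG range. Hmgcs1 fell by 1.0 on the log2 scale (SE 0.265, edgeR adjusted p = 0.0326), which is 0.499-fold. Acat2 ran from 20.8 over 33.4 to 55.3 CPM in hCG cervix and from 27.5 over 57.7 to 94.4 CPM in PBS cervix. Its 10 hCG libraries also lay below the PBS median, but its difference of -0.57 (SE 0.225, adjusted p = 0.102) did not pass.

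The mevalonate steps build isoprenoid units, and 2 of their 6 members fell. Idi1, the isomerase of isopentenyl pyrophosphate, ran from 33 over 98.9 to 216 CPM in hCG cervix and from 82.8 over 308 to 459 CPM in PBS cervix, and fell by 1.21 (SE 0.365, adjusted p = 0.0434). Fdps, which makes farnesyl pyrophosphate, ran from 28.1 over 49.6 to 126 CPM in hCG cervix and from 46.2 over 130 to 297 CPM in PBS cervix, and fell by 1.11 (SE 0.326, adjusted p = 0.0405). For both genes every hCG library lay below the PBS median and 6 PBS libraries lay above the highest hCG library. The kinases Mvk and Pmvk and the decarboxylase Mvd act earlier in the chain and had log2 differences of -0.99, -0.86 and -0.88, which did not pass (adjusted p = 0.0594, 0.0674 and 0.116). Ggps1 leaves the sterol chain here to make geranylgeranyl pyrophosphate for protein prenylation, and it was at a median of 64.5 CPM in hCG cervix and 60.4 CPM in PBS cervix, a log2 difference of 0.20 (SE 0.126, adjusted p = 0.314). Of 10 other genes of the nonsterol isoprenoid branch 0 passed in cervix in edgeR's test, with 1 at an unadjusted p under 0.05.

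All 3 genes that turn farnesyl units into squalene and close the sterol ring fell. Sqle (chr15:59315092-59331193 on GRCm38.p6), squalene epoxidase, ran from 24.6 over 59.1 to 125 CPM in hCG cervix and from 67.2 over 178 to 309 CPM in PBS cervix. Of the hCG libraries 6 lay below the lowest PBS library and 7 PBS libraries lay above the highest hCG library, so that the groups overlapped in few libraries. Sqle fell by 1.28 (SE 0.306, adjusted p = 0.0286). Fdft1, squalene synthase, ran from 39.9 over 55.2 to 114 CPM in hCG cervix and from 54.5 over 141 to 232 CPM in PBS cervix, and fell by 0.91 (SE 0.255, adjusted p = 0.036). All 10 of its hCG libraries lay below the PBS median. Lss, lanosterol synthase, fell by 1.13 (adjusted p = 0.036), with 9 of 10 hCG libraries below the PBS median. Fdft1 shares 774 exon bases, 18.3% of its own, with Ctsb on the opposite strand, and Ctsb held 1817060 counts against 56236 of Fdft1. No label says whether the counting used strand, so the level of Fdft1 is uncertain.

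Of the 9 enzymes that turn lanosterol into cholesterol 5 fell. Hsd17b7, the reductase that removes a keto group during demethylation and in the ovary also forms estradiol, ran from 11.1 over 26.8 to 58.4 CPM in hCG cervix and from 28.7 over 84.2 to 170 CPM in PBS cervix. It fell by 1.32 (SE 0.326, adjusted p = 0.0293), the largest fall among the 28 members, and 7 PBS libraries lay above the highest hCG library. Dhcr7 (chr7:143823167-143848410), which forms cholesterol in the last step, ran from 10.5 over 19 to 42 CPM in hCG cervix and from 31.1 over 52.1 to 93.8 CPM in PBS cervix, with 7 libraries of each treatment outside the range of the other. Its log2 difference of -1.31 (SE 0.27) had the smallest adjusted p of the members in edgeR's test, 0.0263. The lanosterol demethylase Cyp51 fell by 1.16, the methyl sterol oxidase Msmo1 by 1.09 and the sterol dehydrogenase Nsdhl by 0.70 (adjusted p = 0.0345, 0.0434 and 0.0367), each with 10 of 10 hCG libraries below the PBS median.

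The other 4 enzymes of this stretch did not pass. Tm7sf2 and Lbr encode reductases for the same step, and Lbr is also the lamin B receptor of the nuclear envelope. Tm7sf2 differed by -0.64 (SE 0.298, adjusted p = 0.157), while Lbr had a median of 84.3 CPM in hCG cervix and 89 CPM in PBS cervix, a log2 difference of -0.01 (SE 0.136, adjusted p = 0.975). The log2 ratio of Tm7sf2 to Lbr within a library was -3.59 ± 0.843 in hCG cervix and -2.85 ± 0.437 in PBS cervix (SD, n = 10 each), with 8 hCG libraries below the PBS median. That difference of -0.735 had a two-sided permutation p of 0.0251, or 0.0503 adjusted over 6 such ratio tests added after the data were seen, and did not pass. The sterol isomerase Ebp and the desaturase Sc5d differed by -0.49 and -0.50 (adjusted p = 0.126 and 0.164). Tm7sf2 shares 532 exon bases, 12.1% of its own, with Vps51 on the same strand, so reads of the pair may have been split or left uncounted. Also on the same strand, Fdps shares 26.7% of its exon bases with Gm43738, which is not in the count table. Mbtps2 shares 28.4% of its exon bases with Yy2, which held 0 counts.

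Stard4, which carries cholesterol between membranes, ran from 4.69 over 22.4 to 37.5 CPM in hCG cervix and from 23.6 over 49 to 60.5 CPM in PBS cervix. The lowest value was that of hCG library 5, the library lowest in squamous markers, and 7 PBS libraries lay above every hCG library. Stard4 fell by 0.93 (SE 0.285, adjusted p = 0.0463).

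In the SREBP system 1 of 7 genes fell, and it was Srebf2 (chr15:82147269-82205379). It ran from 22.1 over 27.1 to 58.4 CPM in hCG cervix and from 43.3 over 59.5 to 116 CPM in PBS cervix, and 8 hCG libraries lay below the lowest PBS library. Srebf2 fell by 0.99 (SE 0.224, adjusted p = 0.0275). Srebf1 ran from 11.7 over 30.8 to 56.8 CPM in hCG cervix and from 23.9 over 34.4 to 63.6 CPM in PBS cervix. Of its hCG libraries 4 lay below the lowest PBS library, and the highest was library 5. Its log2 difference was -0.16 (SE 0.271, adjusted p = 0.721), and -0.37 (SE 0.275, adjusted p = 0.459) without hCG libraries 3 and 5. The log2 ratio of Srebf2 to Srebf1 was 0.11 ± 0.663 in hCG cervix and 0.84 ± 0.462 in PBS cervix (SD, n = 10 each), with 9 hCG libraries below the PBS median. This difference of -0.721 passed the same permutation test (p = 0.00768, adjusted p = 0.0461), but passed in 7 of the 20 tests with 1 library left out and was -0.434 without hCG libraries 3 and 5 (adjusted p = 0.0533).

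Insig1, which SREBP2 induces, ran from 45.5 over 65.3 to 91.9 CPM in hCG cervix and from 42.9 over 106 to 157 CPM in PBS cervix. All 10 hCG libraries lay below the PBS median, but the lowest library of all was a PBS library, and the difference of -0.55 (SE 0.219, adjusted p = 0.102) did not pass. Insig2 ran from 35.5 over 42.3 to 59.5 CPM in hCG cervix and from 32.2 over 40.7 to 55.9 CPM in PBS cervix, a log2 difference of 0.12 (SE 0.12, adjusted p = 0.538). The log2 ratio of Insig1 to Insig2 was 0.55 ± 0.537 in hCG cervix and 1.14 ± 0.559 in PBS cervix (SD, n = 10 each), which did not pass the permutation test (adjusted p = 0.0503). Scap ran from 18.7 over 33.2 to 45.3 CPM in hCG cervix and from 30.7 over 39.7 to 62.9 CPM in PBS cervix, a log2 difference of -0.36 (SE 0.174, adjusted p = 0.171). The proteases Mbtps1 and Mbtps2 differed by 0.02 and -0.11 (adjusted p = 0.884 and 0.643), with overlapping ranges. Mbtps1 varied least among the members between libraries, with a coefficient of variation of 10.6% in hCG cervix and 11.2% in PBS cervix, against 50.6% and 44.3% for Sqle.

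**Figure D2:**
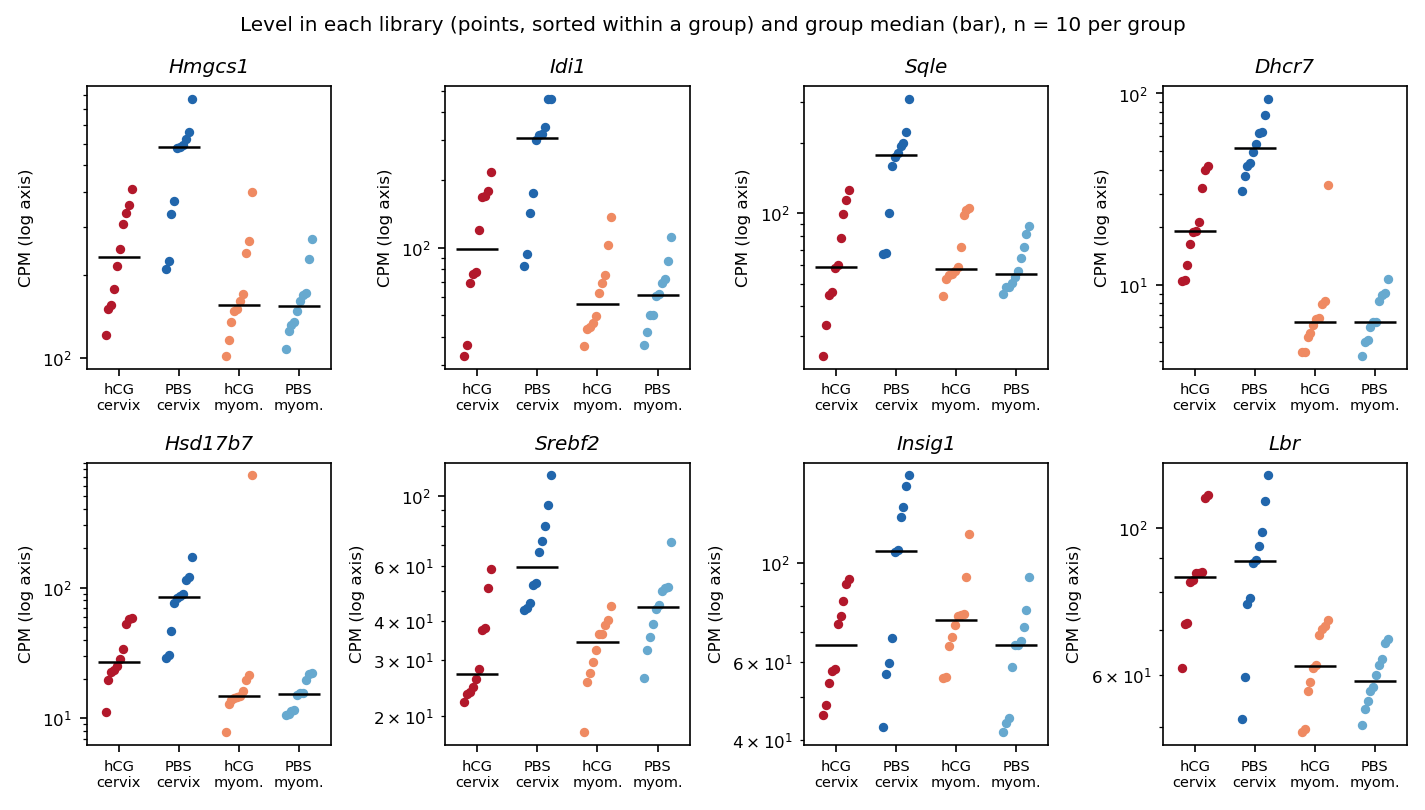
Level in CPM on a log axis of 8 members in each of the 40 libraries (points, sorted within a group) with the group median (bar), for hCG and PBS cervix and hCG and PBS myometrium, n = 10 per group. In cervix the hCG medians of Hmgcs1, Idi1, Sqle, Dhcr7, Hsd17b7 and Srebf2 lie below the PBS medians with overlapping points, Lbr medians lie close together, and 1 hCG myometrium library stands far above the others for Hsd17b7 and Dhcr7.

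Neighbouring pathways were taken from lists of other sterol genes. Of 5 genes of sterol efflux and its LXR receptors, 2 rose in cervix with hCG and 0 fell, against 4.74% of all genes higher. Abca1, the cholesterol export pump, ran from 92.4 over 184 to 446 CPM in hCG cervix and from 60.3 over 110 to 205 CPM in PBS cervix, and rose by 0.96 (SE 0.284, adjusted p = 0.0409). Mylip, an LXR target that marks lipoprotein receptors for degradation, ran from 40.9 over 53.7 to 113 CPM in hCG cervix and from 28.7 over 34.3 to 50.1 CPM in PBS cervix, and rose by 0.71 (SE 0.171, adjusted p = 0.0284). For both genes the groups overlapped and the highest value was that of hCG library 5, which also held the highest smooth muscle and urothelial sums of the cervix libraries, and the part of those cells in these differences was not tested. At equal squamous score Abca1 differed by 0.11 (SE 0.227) and Mylip by 0.29 (SE 0.157), and neither passed (adjusted p = 0.977 and 0.831).

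Across all genes 4.74% rose and 4.17% fell in cervix, so 1 gene past the threshold says little of its list. Of 14 genes of sterol uptake, lysosomal exit and transfer 1 rose, Lipa, the lysosomal acid lipase that frees cholesterol from its esters (log2 0.85, SE 0.228, adjusted p = 0.0332). Of 6 tested genes of sterol esterification and oxidation 1 rose, the esterase gene Ces1d (log2 1.06, SE 0.303, adjusted p = 0.0377). Ces1d was also 1 of the 2 genes that passed in myometrium, with a median of 16.3 CPM in hCG myometrium and 4.25 CPM in PBS myometrium (log2 1.71, SE 0.279, adjusted p = 0.023). Of 10 genes of sterol-regulated protein degradation 1 fell, the ubiquitin ligase gene Syvn1 (log2 -0.66, SE 0.202, adjusted p = 0.0468). Of 11 fatty acid genes that SREBP1 controls 1 fell, the desaturase gene Scd2 (log2 -0.77, SE 0.193, adjusted p = 0.0298), and the median of these 11 was 0.22. At equal squamous score 0 genes of these lists passed, with differences of 0.60 for Lipa, 0.96 for Ces1d, -0.41 for Syvn1 and -0.46 for Scd2.

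The libraries of a group did not take part in these differences equally. In PBS cervix library 4 was the highest for 20 of the 28 members and library 6 the lowest for 14. In hCG cervix library 1 was the highest for 12 members and library 3 the lowest for 11. PBS library 4 also had the highest squamous score of the group, 11.3, and hCG library 3 the second lowest of its group, 6.41. Not every library followed the score. hCG library 5 had the lowest score, 3.74, but was the lowest for 2 members. PBS library 7 had the second highest score, 10.9, but its 20 enzymes summed to 1823 CPM, below the group median of 2618 CPM. The squamous score is the mean log2 CPM of 14 keratin, desmosome and basal cell markers, and it was 7.99 ± 1.82 in hCG cervix and 10.1 ± 0.787 in PBS cervix (SD, n = 10 each). Of the 14 markers 5 fell with hCG and 0 rose, where 4.17% of all genes fell and 4.74% rose. Their sum ran from 1468 to 19420 CPM in hCG cervix and from 12160 to 79170 CPM in PBS cervix. The markers did not move alike, from -4.80 for Krt16 to -0.06 for Krt15 on the log2 scale. Markers of epithelium in general summed to a median of 1616 CPM in hCG cervix and 2396 CPM in PBS cervix. Whether the score follows the amount or the state of the epithelium was not tested.

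The count of members that passed differed between subsets of the libraries. Within the 10 deeper cervix libraries, 6 of hCG and 4 of PBS with at least 16613261 counts, the 13 members that fell differed by -1.89 to -0.89 and 9 of the 28 members passed (1.53% of all genes did). Within the 10 shallower libraries, 4 of hCG and 6 of PBS with at most 11602678 counts, the same 13 differed by -0.97 to -0.41 and 0 of 28 passed, as did 0% of all genes (776 genes and 3 members at an unadjusted p under 0.05 in edgeR). In the deeper and the shallower libraries Sqle differed by -1.69 and -0.90, Hsd17b7 by -1.89 and -0.77, and Srebf2 by -1.02 and -0.85. Hmgcs1 differed by -1.40 and -0.67, Fdps by -1.81 and -0.41, and Stard4 by -1.18 and -0.76. The subsets differ in more than depth. PBS cervix libraries 5 to 8, all among the shallower ones, held 17.5%, 11.7%, 5.89% and 3.51% of their counts in the single gene Lars2, where every other cervix library held at most 0.122%. Without these 4 libraries 0 members passed (0.0064% of all genes did, and 21 members and 4266 genes had an unadjusted p under 0.05 in edgeR), with a median of -0.97 over the members. The part of depth and of the Lars2 share in these differences was not tested separately.

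Without any 1 of hCG library 3 or PBS libraries 4, 7 or 8 the count of members that passed was 0. It was 4 to 8 without any 1 of hCG libraries 2, 4, 5, 7 or R3 or PBS libraries 1, 2 or 10, and 9 to 16 without any other 1 library. The shares of all genes that passed in these fits are not given here, so the counts do not set the members apart from other genes. The share moved when 2 libraries were left out, from 8.91% with all 20 to 0.0339% without hCG libraries 3 and 5. In each of these 20 fits 24 to 26 members had a negative fold change, with a median of -0.97 to -0.63 over the 28. Without hCG libraries 1, 3 and 5, which held the high sums of other tissues' markers given above, 0 members and 0% of all genes passed in edgeR's test (18 members and 2833 genes at an unadjusted p under 0.05), and the median of the members was -0.84. The part of each of those marker lists in the result was not tested separately. In cervix with hCG 5 of 6 urothelial, 4 of 8 leukocyte, 1 of 6 tested skeletal muscle and 0 of 7 adipocyte markers rose, where 4.74% of all genes did. Leukocyte markers summed to 223 to 733 CPM in hCG cervix and to 128 to 336 CPM in PBS cervix. Mitotic markers summed to 91.9 to 814 CPM in hCG cervix and to 326 to 783 CPM in PBS cervix, and with a mitotic score as a covariate, added after the data were seen, 0 members passed (0.0469% of all genes did) and their median was -0.62.

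Members were next set against the squamous score in libraries of the same treatment. With treatment and squamous score fitted together over the 20 cervix libraries, 8 of 28 members rose with the score and 0 fell (18% of all genes passed, 8.73% rising and 9.32% falling). These were Stard4 with a slope of 0.46 (SE 0.0702, edgeR adjusted p = 9.16e-05), Dhcr7 with 0.36 (SE 0.0591, adjusted p = 0.000189), and Cyp51, Mvk, Hsd17b7, Ebp, Fdft1 and Nsdhl with 0.31 to 0.18, all in log2 CPM per unit of the score. The 6 members with the smallest differences between hCG and PBS also had slopes near 0, namely Ggps1 with -0.07, Srebf1 with -0.05, Mbtps1 with -0.01, Lbr with 0.06, Insig2 with 0.07 and Mbtps2 with 0.08, of which 0 passed. Scap and Insig1 had larger hCG differences, -0.36 and -0.55, with slopes as small. Their slopes were 0.06 (SE 0.0592, adjusted p = 0.578) and 0.03 (SE 0.0772, adjusted p = 0.835). For Scap the slope was 0.23 in PBS libraries alone and 0.30 without hCG libraries 3 and 5 (adjusted p = 0.246 and 0.0482). The slope of Srebf2 was 0.19 (SE 0.0665, adjusted p = 0.0506). The slopes of Srebf1 and Insig1 were larger in PBS libraries alone, at 0.27 and 0.36, and without hCG libraries 3 and 5, at 0.39 and 0.33, and passed in neither (adjusted p = 0.37, 0.354, 0.0737 and 0.0869).

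In PBS libraries alone, where hCG plays no part, 8 of 28 members passed (9.52% of all genes). The median slope was 0.52 over the members, against 0.00242 over all genes tested. The 8 were not all those of the joint fit, and were Stard4, Dhcr7, Hsd17b7, Fdft1, Nsdhl, Sqle, Lss and Fdps. Cyp51, Mvk and Ebp, which passed in the joint fit, did not pass in edgeR's test here (adjusted p = 0.0524, 0.0597 and 0.226). In hCG libraries alone 3 members passed (11% of all genes), with a median slope of 0.15. Without libraries 5 and 3 of hCG cervix, the lowest of all in the score, 21 members rose with the score (15.8% of all genes passed in either direction) and the median slope was 0.55, with 0.66 for Idi1, 0.68 for Sqle, 0.77 for Hsd17b7 and 0.61 for Dhcr7. Leaving these 2 libraries out was chosen after the data were seen.

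**Figure D3:**
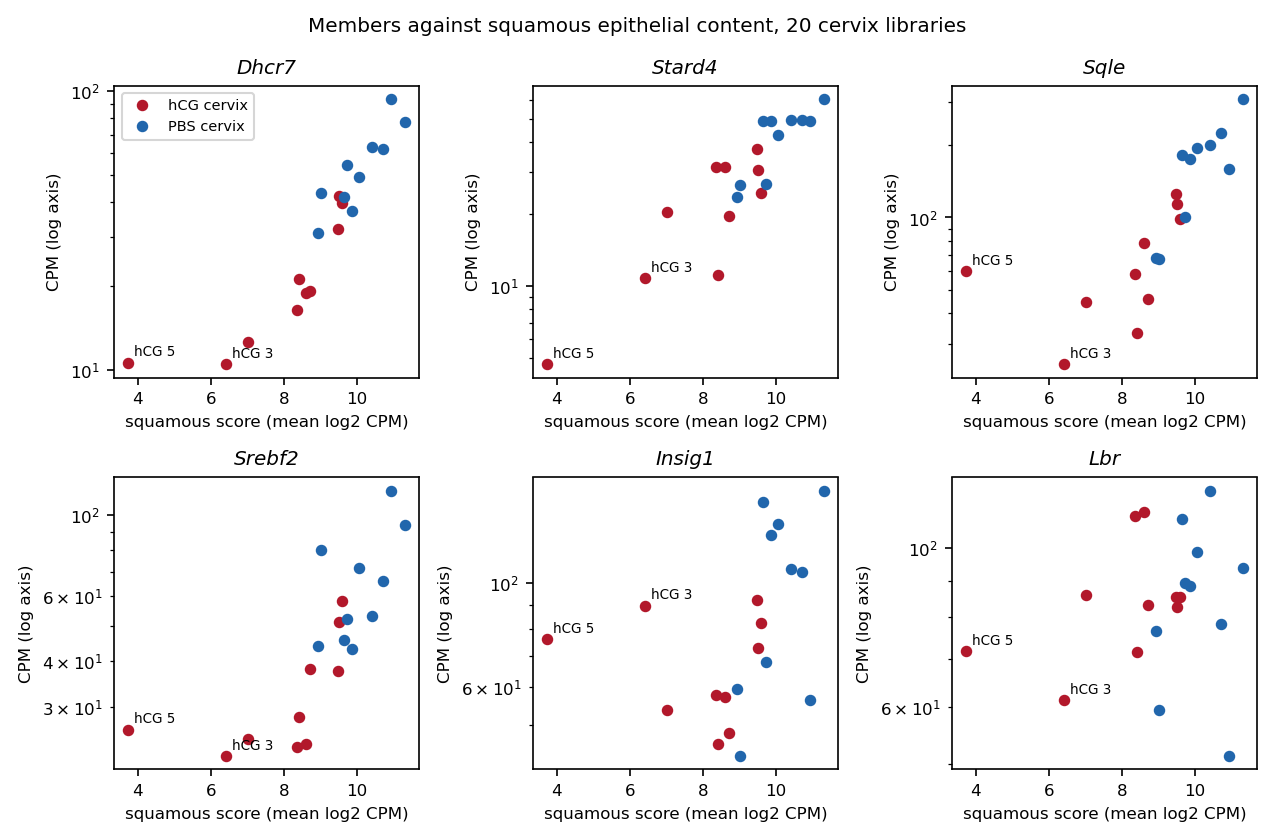
Level in CPM on a log axis (vertical) of 6 members against the squamous score (horizontal, mean log2 CPM of 14 markers) in 10 hCG and 10 PBS cervix libraries, each a point. Among PBS libraries the slopes of Dhcr7, Stard4, Sqle, Srebf2 and Insig1 are 0.53, 0.47, 0.77, 0.33 and 0.36 and that of Lbr is 0.02, and hCG libraries 5 and 3, at 3.74 and 6.41, stand at the low end.

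The difference between treatments was smaller at equal squamous score. In that fit 0 of 28 members passed, as did 0% of all 14932 genes (910 genes at an unadjusted p under 0.05 in edgeR). The median over the members was -0.41, and 24 members were negative. The smallest p were those of Dhcr7 with -0.62 (SE 0.204, p = 0.00611, adjusted p = 0.585), Srebf2 with -0.60 (SE 0.239, p = 0.0197, adjusted p = 0.736) and Sqle with -0.75 (SE 0.333, p = 0.0357, adjusted p = 0.797). Stard4, which fell by 0.93 without the score, differed by -0.09 (SE 0.214). The score itself differed between the treatments, so the terms for score and treatment share part of the same difference.

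That fit depended on the libraries with the least squamous signal. Without hCG libraries 3 and 5 the difference at equal score had a median of -0.04 over the 28 members, 17 of them negative, with 0 members and 0% of all genes passing (645 genes at an unadjusted p under 0.05 in edgeR). The largest remaining differences were Srebf2 with -0.39 (SE 0.242) and Dhcr7 with -0.35 (SE 0.176). Without the same libraries and with no term for the score, Srebf2 differed by -0.90, Dhcr7 by -1.13 and Sqle by -1.14. The plot of the 3 fits shows this shift for each member.

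**Figure D4:**
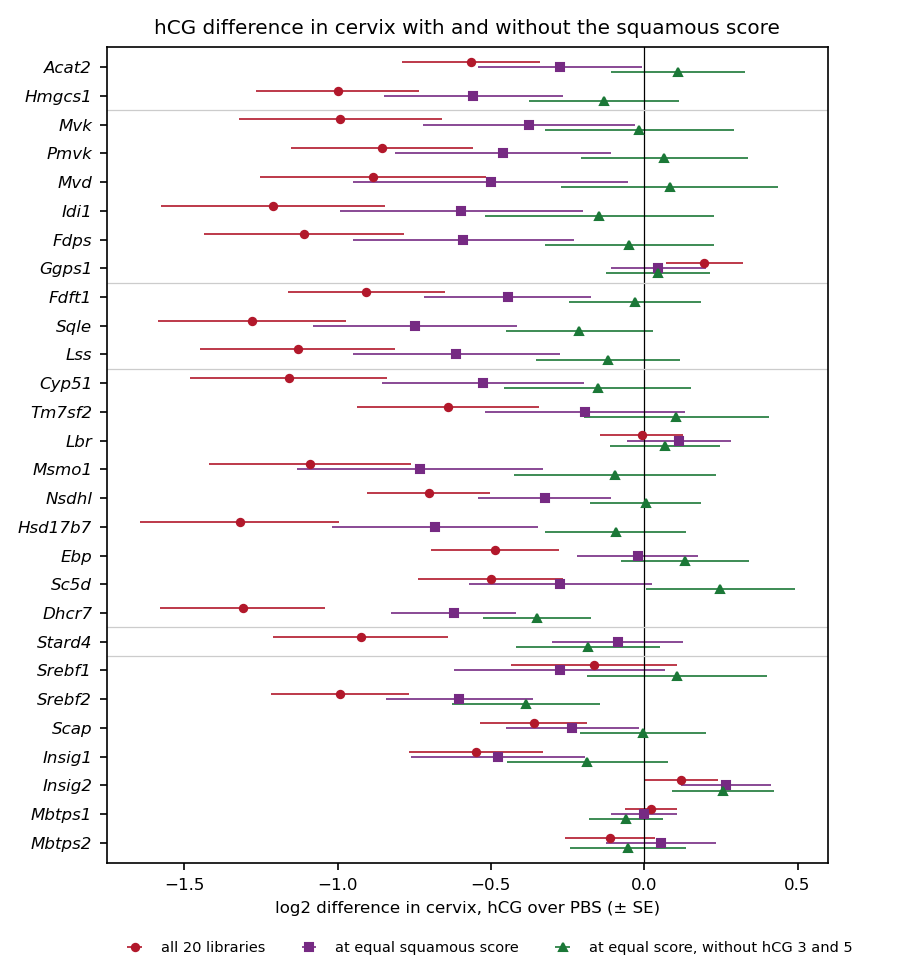
Log2 difference of hCG over PBS in cervix (horizontal axis, bars are standard errors) for the 28 members in pathway order, from all 20 libraries (circles), at equal squamous score (squares) and at equal score without hCG libraries 3 and 5 (triangles). The medians over the members are -0.87, -0.41 and -0.04.

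In myometrium 0 of 28 members passed for hCG against PBS, where 0.0138% of all genes did, 2 of 14517. In edgeR's test 4 members had an unadjusted p under 0.05, and DESeq2 also called 0 members while it called 384 genes, 2.65% of all. The median over the members was 0.18. The summed level of the 20 enzymes had medians of 844 CPM in hCG myometrium and 828 CPM in PBS myometrium, with overlapping libraries. Srebf2, the 1 gene of the SREBP system with an unadjusted p under 0.05, ran from 17.7 over 34.3 to 44.6 CPM in hCG myometrium and from 26.3 over 44.3 to 71.2 CPM in PBS myometrium. Of its 10 hCG libraries 9 lay below the PBS median, and it differed by -0.42 (SE 0.162, adjusted p = 0.197).

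The other members of the SREBP system overlapped between the treatments in myometrium over most of their range. Srebf1 ran from 14.5 over 21.3 to 31.1 CPM in hCG myometrium and from 14.9 over 24.2 to 33.6 CPM in PBS myometrium (log2 -0.11, SE 0.149, adjusted p = 0.802). The log2 ratio of Srebf2 to Srebf1 was 0.55 ± 0.248 in hCG and 0.85 ± 0.317 in PBS myometrium (SD, n = 10 each). As in cervix, 9 hCG libraries lay below the PBS median. This difference of -0.296 did not pass the permutation test (p = 0.0335, adjusted p = 0.0503), and passed in 6 of 20 tests with 1 library left out. Scap ran from 10.1 over 20.4 to 36 CPM in hCG myometrium and from 16.9 over 22.1 to 34 CPM in PBS myometrium (log2 -0.12, SE 0.163, adjusted p = 0.786), with 8 of 10 hCG libraries below the PBS median. Insig1, for which all hCG cervix libraries lay below the PBS median, had 7 of 10 hCG libraries above the PBS median in myometrium. It ran from 55.3 over 74.3 to 116 CPM in hCG myometrium and from 41.7 over 65.3 to 93.1 CPM in PBS myometrium (log2 0.27, SE 0.149, adjusted p = 0.401). Insig2 ran from 40.2 over 47.3 to 60.4 CPM in hCG myometrium and from 43.3 over 49.2 to 66.1 CPM in PBS myometrium (log2 -0.04, SE 0.0861, adjusted p = 0.876). The log2 ratios of Insig1 to Insig2 and of Tm7sf2 to Lbr differed by 0.323 and 0.13 in myometrium. Neither passed the permutation test (adjusted p = 0.132 and 0.626).

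Along the enzyme chain the myometrium groups overlapped. Hmgcs1 ran from 102 over 156 to 399 CPM in hCG myometrium and from 108 over 155 to 271 CPM in PBS myometrium (log2 0.21, SE 0.217, adjusted p = 0.715). Acat2 ran from 20.2 over 28.5 to 52.6 CPM in hCG myometrium and from 17.4 over 22.5 to 47.2 CPM in PBS myometrium, with 9 of 10 hCG libraries above the PBS median (log2 0.21, adjusted p = 0.704). Medians of these first enzymes thus differed by less than the range of either group. Idi1 ran from 36.4 over 56.2 to 137 CPM in hCG myometrium and from 36.8 over 61.6 to 111 CPM in PBS myometrium (log2 0.06, adjusted p = 0.942). Fdps ran from 38.3 over 58 to 118 CPM in hCG myometrium and from 32.1 over 51.5 to 119 CPM in PBS myometrium (log2 0.22, adjusted p = 0.719). Both isoprenoid enzymes, among those that fell in cervix, spread over the same range with either injection in myometrium.

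Sqle ran from 44.4 over 57.8 to 105 CPM in hCG myometrium and from 45.2 over 55.1 to 88.4 CPM in PBS myometrium (log2 0.22, SE 0.169, adjusted p = 0.579). Fdft1 ran from 80.9 over 98.2 to 168 CPM in hCG myometrium and from 74.5 over 93.3 to 113 CPM in PBS myometrium (log2 0.25, SE 0.128, adjusted p = 0.355). For these squalene enzymes 7 and 6 of the 10 hCG libraries lay above the PBS median. Stard4 ran from 34.1 over 42.4 to 57.6 CPM in hCG myometrium and from 31.4 over 45.4 to 56 CPM in PBS myometrium (log2 0.04, SE 0.121, adjusted p = 0.923). Ebp, the sterol isomerase, had medians of 41.8 CPM in hCG myometrium and 33.2 CPM in PBS myometrium, and 9 of 10 hCG libraries lay above the PBS median (log2 0.36, SE 0.131, adjusted p = 0.176). Ebp, Sc5d and Hsd17b7 were the enzymes with an unadjusted p under 0.05.

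A single library set the highest levels in hCG myometrium. Library 5 held 721 CPM of Hsd17b7, where the other 9 held 7.84 to 21.5 CPM and PBS myometrium 10.7 to 22.1 CPM. It also held 282 CPM of Sc5d, against a group median of 43.2 CPM, and 33.3 CPM of Dhcr7, against 6.41 CPM, and it was the highest of its group for 13 of the 28 members. Genes of steroid-forming cells, which use cholesterol as their substrate, were high in the same library. It held 729 CPM of Star, which brings cholesterol into mitochondria, where the other hCG libraries held at most 23 CPM and PBS myometrium at most 43 CPM. It held 69.1 CPM of Lhcgr, the receptor for hCG, and 14.5 CPM of aromatase, Cyp19a1, where every other myometrium library held at most 0.305 CPM of either. The 6 steroidogenic markers summed to 3104 CPM in it, against 41.9 to 1224 CPM in the other hCG libraries and 19.4 to 1619 CPM in PBS myometrium. The log2 difference of Hsd17b7 was 2.49 (SE 0.85, adjusted p = 0.155) with this library and -0.04 without it, and the part of those cells in the other members was not tested. Library 5 also held 10640 CPM of yolk sac and fetal liver markers, which summed to 157 to 23890 CPM over hCG myometrium and to 65.8 to 15120 CPM over PBS myometrium. Acat2 was at 52.6 and 50.1 CPM in hCG myometrium libraries 5 and 10 and at 46.2, 47.2 and 39.5 CPM in PBS myometrium libraries 4, 8 and R3, the 5 libraries richest in these markers, and at 17.4 to 42.9 CPM in the other 15. With a yolk sac score as a covariate 0 members passed (0.0276% of all genes did, and 2 members and 2239 genes had an unadjusted p under 0.05 in edgeR) and the log2 difference of Hsd17b7 was 1.24 (SE 0.911).

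The level in cervix was next set against that in myometrium of the same treatment. In PBS mice 22 members were higher in cervix and 1 lower, where 54% of all genes passed, 28% as higher and 26.1% as lower. Squamous markers summed to 12160 to 79170 CPM in PBS cervix and to 104 to 254 CPM in PBS myometrium, and their part in these differences was not tested. Dhcr7 ran from 31.1 over 52.1 to 93.8 CPM in PBS cervix and from 4.27 over 6.38 to 10.8 CPM in PBS myometrium, without overlap, a log2 difference of 2.97 (SE 0.214, adjusted p = 1.46e-10). Hsd17b7, Lss and Idi1 followed with 2.44, 2.07 and 2.04, then Msmo1, Cyp51 and Tm7sf2 with 1.85, 1.66 and 1.64. At the other end of the members higher in cervix were Lbr with 0.53 and Fdft1 with 0.46. In the SREBP system Scap, Insig1, Srebf1 and Srebf2 were higher in cervix by 0.85, 0.65, 0.60 and 0.58 (adjusted p = 1.88e-05, 0.0126, 0.00768 and 0.0173). The tissues did not overlap for 5 members, Mvk, Lss, Tm7sf2, Hsd17b7 and Dhcr7, as for 14.3% of all genes. Insig2 was the 1 member lower in cervix (log2 -0.26, SE 0.0978, adjusted p = 0.0295), and Stard4, Ggps1, Nsdhl, Mbtps1 and Mbtps2 did not pass.

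In hCG mice 4 members were higher in cervix than in myometrium, Dhcr7 (1.31), Lss (0.83), Scap (0.62) and Lbr (0.44), and 3 were lower, Stard4 (-1.0), Fdft1 (-0.70) and Nsdhl (-0.68), where 43.7% of all genes passed, 24.3% as higher and 19.4% as lower. Srebf2 had medians of 27.1 CPM in hCG cervix and 34.3 CPM in hCG myometrium, and a log2 difference of 0.00396 in the fit (SE 0.193, adjusted p = 0.988). Sqle and Fdps also differed little in the fit, by -0.05 (SE 0.261) and -0.01 (SE 0.28). Dhcr7 ran from 10.5 over 19 to 42 CPM in hCG cervix and from 4.43 over 6.41 to 33.3 CPM in hCG myometrium, overlapping through myometrium library 5. The median difference over the members was 0.13 in hCG mice and 0.91 in PBS mice. Stard4 had a median of 22.4 CPM in hCG cervix and 42.4 CPM in hCG myometrium, and of 49 CPM in PBS cervix and 45.4 CPM in PBS myometrium. The Lbr difference between tissues was about the same in hCG mice, 0.44 (SE 0.105), and in PBS mice, 0.53 (SE 0.115).

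**Figure D5:**
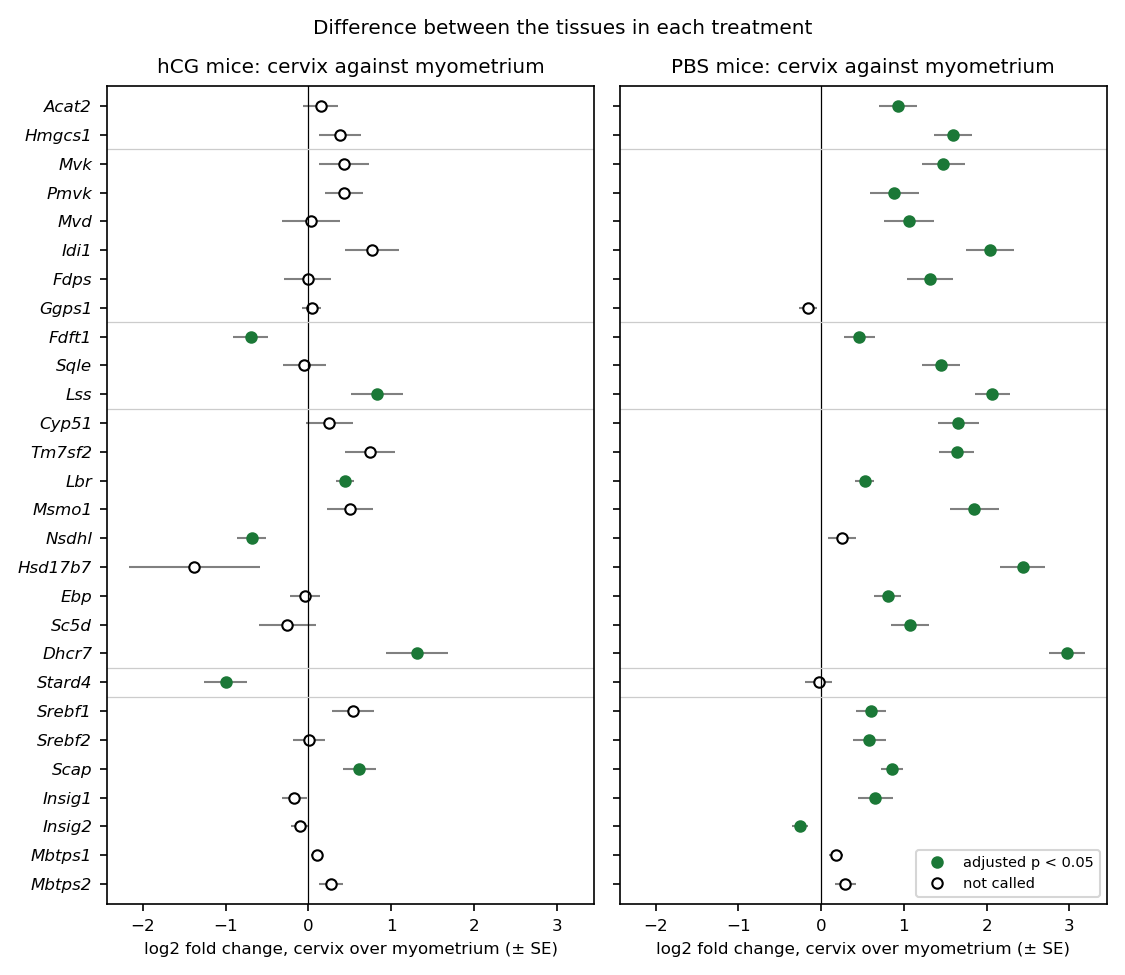
Log2 fold change of cervix over myometrium (horizontal axis, bars are standard errors) for the 28 members in hCG mice (left) and PBS mice (right), n = 10 libraries per group. Filled points passed the test, 7 members in hCG mice and 23 in PBS mice.

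Whether the hCG difference itself was unequal between the tissues was tested over all 40 libraries. This difference passed for 2 of 28 members, both with a lower response in cervix, where 0.352% of all genes passed and 0.224% did so in that direction, and 20 members had an unadjusted p under 0.05. They were Sqle, whose response was lower in cervix by 1.5 on the log2 scale (SE 0.357, edgeR adjusted p = 0.0486), and Hsd17b7 (log2 -3.82, SE 0.878, adjusted p = 0.0469). With the replicate number as a block 0 members and 0 genes passed in edgeR (20 members and 3486 genes at an unadjusted p under 0.05), with -1.41 for Sqle (adjusted p = 0.0767) and -1.60 for Hsd17b7 (adjusted p = 0.176). With 1 library left out Sqle passed in 10 of 40 fits and Hsd17b7 in 13 of 40. The value of Hsd17b7 rests in part on library 5 of hCG myometrium. Without that library and hCG cervix libraries 1, 3 and 5 it was -1.26 (adjusted p = 0.154) and that of Sqle -1.42 (adjusted p = 0.097), so that 0 members and 0.0128% of all genes passed. The median over the 28 members was -0.96, and 26 were negative. The responses of Lbr and of Srebf1 differed between tissues by -0.09 (SE 0.158) and -0.06 (SE 0.317).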

How the data were processed

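The series holds 40 RNA-seq libraries, 10 for each of 4 groups, read from the labels: cervix and myometrium of hCG and of PBS mice. Per the labels' protocols, total RNA was extracted with QIAzol from pieces of tissue and made into libraries with a stranded total RNA kit. The authors deposited 1 table of whole-number read counts per gene, not normalized. The tool named for the series, per the submitters' processing notes, is TopHat2, and the build is GRCm38 (mm10). The counting tool, its annotation and its strand setting appear in none of the labels or headers. The table names genes by NCBI gene number. Of 23079 numbers 23008 matched a symbol in the RefSeq GRCm38.p6 gene table, and the other 71 held 0.197% of the counts.

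Totals ran from 6613775 to 22274244 counts in hCG cervix, 7255131 to 25028360 in PBS cervix, 5449239 to 20603741 in hCG myometrium and 5933199 to 20108002 in PBS myometrium, and no 2 libraries of a group agreed within sampling noise. Levels are CPM after TMM scaling. Differences were tested with edgeR 4.0.16 in R 4.3.3 (filterByExpr, TMM factors, robust quasi-likelihood F test, two-sided) over all genes passing the filter, with Benjamini-Hochberg adjustment and a threshold of 0.05. The SE was derived from the log2 difference and its F statistic. The squamous score is the mean log2 CPM, with a prior count of 2, of 14 markers, and it entered as a covariate beside treatment. Alternatives used limma 3.58.1, DESeq2 1.42.0, other scaling and filters, a depth term and libraries left out. Each fit was tested on simulated data with 200 changed genes. Gene starts and promoters come from RefSeq GRCm38.p6, and overlaps between genes from GENCODE vM21.

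The 28 members and the lists of other genes were chosen with earlier results of these data known. Named in full are the 2 members of each role with the smallest p in cervix, and always Srebf1, Srebf2, Insig1, Insig2 and Scap. From each other pathway list up to 4 genes past the threshold in cervix are named, in order of p. Library numbers shared between groups were not taken to pair the libraries, since no label says that a number is an animal. Deviations of same-numbered libraries correlated by over 0.1 in 4 of 9 pairs between hCG and PBS cervix (-0.0675 to 0.305, median 0.0914). They did so in 3 of 8 between hCG and PBS myometrium (-0.185 to 0.192, median -0.0419). Between cervix and myometrium 3 of 9 did in hCG mice (-0.115 to 0.324, median 0.0594) and 5 of 9 in PBS mice (-0.253 to 0.572, median 0.14). In each of these tissue comparisons 3 of 9 libraries matched best with their own number. These values do not settle whether the tissues share mice. Log2 ratios of member pairs were tested with 100000 permutations of the treatment labels.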

Additional observations from a re-analysis of the deposited data

Results flagged for a closer look

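For each member and group, the highest or lowest of the 10 libraries was compared with its nearest neighbour by Dixon's test, 112 combinations in all, and 11 stood apart; chance alone flags about 1 in 20 groups. In hCG myometrium library 5 stood above the others for 5 members, with 721 CPM of Hsd17b7 (group median 14.7), 282 CPM of Sc5d (median 43.2), 33.3 CPM of Dhcr7 (median 6.41), 43.6 CPM of Lss (median 21.3) and 9.74 CPM of Tm7sf2 (median 4.44). It is the library with 3104 CPM of steroidogenic markers. In PBS cervix library 4, the highest in squamous markers, stood above the others with 46.1 CPM of Mvk (median 16) and 25.5 CPM of Tm7sf2 (median 11.4). In PBS myometrium library R3 held 119 CPM of Fdps (median 51.5), library 1 held 98.3 CPM of Ggps1 (median 64.9) and 66.1 CPM of Insig2 (median 49.2), and library 4 held 34 CPM of Scap (median 22.1).

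The test of an unequal hCG response in cervix and myometrium over all 40 libraries passed for Sqle (log2 -1.5, edgeR adjusted p = 0.0486) and Hsd17b7 (log2 -3.82, adjusted p = 0.0469). The value of Hsd17b7 rests in part on hCG myometrium library 5, with 721 CPM against a group median of 14.7 CPM. Each gene failed to pass in most fits with 1 library left out. Neither passed without hCG cervix libraries 1, 3 and 5 and hCG myometrium library 5. With the replicate number as a block neither passed (adjusted p = 0.0767 and 0.176).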

How the results depend on the processing

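The number of members that passed for hCG against PBS in cervix was 13. It was 9 to 17 under other scaling, filters and dispersion settings, DESeq2, limma voom, an adjusted p under 0.1, the deeper libraries, the libraries without R numbers and all 40 libraries in 1 fit, and 16 with the replicate number as a block. Across all genes 8.91% passed in the main fit. In those settings the share ran from 1.53% in the deeper libraries to 21.9% with all 40 libraries in 1 fit, and was 7.94% with the block. The count of members was 0 without hCG libraries 1, 3 and 5, without PBS libraries 5 to 8 (the Lars2-rich ones), in the shallower libraries, without hCG libraries 3 and 5 and with a mitotic score as a covariate (the last 2 chosen after seeing the data), and 7 with depth class as a term. Of all genes at most 0.0469% passed in these fits with 0 members, and 3.4% with depth class as a term. With 1 library left out the count of members was 0 to 16, with the shares of all genes not given here. The cause of these shifts was not tested.

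The difference of the response between tissues passed for 2 members. Across all genes 0.352% passed. With upper-quartile factors the difference passed for 1 member (0.256% of all genes). Without a filter it passed for 0 (0.115%), and with the replicate block for 0 (0%). Without hCG cervix libraries 1, 3 and 5 and hCG myometrium library 5 it also passed for 0 (0.0128%). It passed for 12 with DESeq2 (3.62%), 13 with limma voom (3.65%) and 14 at an adjusted p under 0.1 (4.74%). With 1 library left out it passed for 0 to 14, with the shares of all genes not given here. The slope on the squamous score passed for 8 members (18% of all genes). It passed for 20 without hCG libraries 1, 3 and 5 (16.9%) and 21 without hCG libraries 3 and 5 (15.8%). With a score of epithelium in general it passed for 16 (18.3%), and in hCG libraries only for 3 (11%). With 1 library left out it passed for 5 to 18 (shares of all genes not given here). Hsd17b7 in myometrium, at 2.49, was -0.030 with DESeq2, and with 1 library left out it ran from -0.040 (without hCG library 5) to 2.63.

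Counts for myometrium (0), for the tissues in PBS mice (21 to 25) and in hCG mice (6 to 10) and at equal squamous score (0) stayed within 1.5 times the reported ones in the settings run. The replicate block gave 0, 22 and 6 and was not run at equal score. Apart from fits with 1 library left out, 0.00681% to 2.65% of all genes passed in myometrium and 0% at equal score. Between the tissues 44.8% to 60.6% of all genes passed in PBS mice and 36.7% to 50.9% in hCG mice. In cervix the Srebf2 to Srebf1 ratio kept its sign with 1 library left out (-0.822 to -0.585), and did not pass without hCG libraries 1, 3 and 5 (-0.425).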
